A study of Mus musculus with 27 samples.

Results

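The Hox genes encode homeodomain transcription factors that lie in 4 clusters, and all 39 of them had a row in the gene count tables of mouse colonic epithelium. They were taken by name, as every gene symbol made of Hox, a cluster letter from a to d and a paralog number, out of 46078 gene rows. The Hoxa cluster on chromosome 6 gave 11 members, the Hoxb cluster on chromosome 11 gave 10, the Hoxc cluster on chromosome 15 gave 9 and the Hoxd cluster on chromosome 2 gave 9. RNA was sequenced from epithelium scraped from the colon of 27 male C57BL/6 mice, 3 in each of 9 groups. In 7 oral gavages, 4 days apart and begun at 28 days of age, each mouse was given sesame oil (vehicle) or the dioxin TCDD, whose doses were 30, 10, 3, 1, 0.3, 0.1, 0.03 and 0.01 μg/kg. Tissue was collected at 56 days of age. Below, a dose group is named by its dose in μg/kg and its mice are given as replicates 1, 2 and 3, in that order. No group carried a genetic change. The labels do not say which stretch of the colon was scraped, so the position along the colon was not a variable of the design, and the spread between mice below is given without it.

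Hox genes are laid out in each cluster in the order in which they act along the head to tail axis, and the paralog number counts that order, from anterior genes with low numbers to posterior genes with high numbers. In the gut they are known for regional identity, and the paralogs numbered 13 are known as genes of the hindgut. Hox proteins bind DNA with partner homeodomain proteins of the Pbx, Meis and Pknox families, Cdx factors and retinoic acid act upstream of them, and Polycomb and Trithorax complexes keep them off or on. TCDD acts through the aryl hydrocarbon receptor (AhR), and the study followed the response of the gut to its dose.

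Gene counts per mouse ranged from 9305441 to 14371035, of which the 39 Hox genes took between 0.0508% and 0.0660%. Cyp1a1, the classic AhR target, had 0 to 1 count in the vehicle mice and 23969 to 29287 at 30 μg/kg. The index sequences of the libraries came in 2 sets, index set 1 (16 mice, vehicle to 0.3 μg/kg and 1 of the mice at 1 μg/kg) and index set 2 (11 mice, the other mice at 1 μg/kg and all above). This split followed dose and the 2 cannot be told apart except through values within a set. In RNA from a scraping, fewer cells of a type and less RNA per cell cannot be told apart, and the tables do not show which cells carried the Hox RNA. The epithelial list stood at 37942 to 58677 summed CPM (a gene's count scaled to the size of its library), most of it Muc2, the goblet cell mucin. The smooth muscle list ranged from 20.8 to 731 summed CPM and the fibroblast list from 72.1 to 230.3, so none of these libraries was free of other cell types.

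In the scrapings most of the Hox CPM came from the Hoxb and Hoxa clusters. Summed over its members, the Hoxb cluster stood at a median of 365 CPM (275 to 455 over the 27 mice), the Hoxa cluster at 190.3 CPM (109.9 to 286), the Hoxd cluster at 16.3 CPM (8.85 to 22.9) and the Hoxc cluster at 0.871 CPM (0.0729 to 3.02). The Hoxb cluster thus held a median of 63.8% of the summed Hox CPM and the Hoxa cluster 32.7%. A filter on low counts kept 25 members for testing, namely 10 of 11 in Hoxa, 9 of 10 in Hoxb, 6 of 9 in Hoxd and 0 of 9 in Hoxc.

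**Figure D1:**
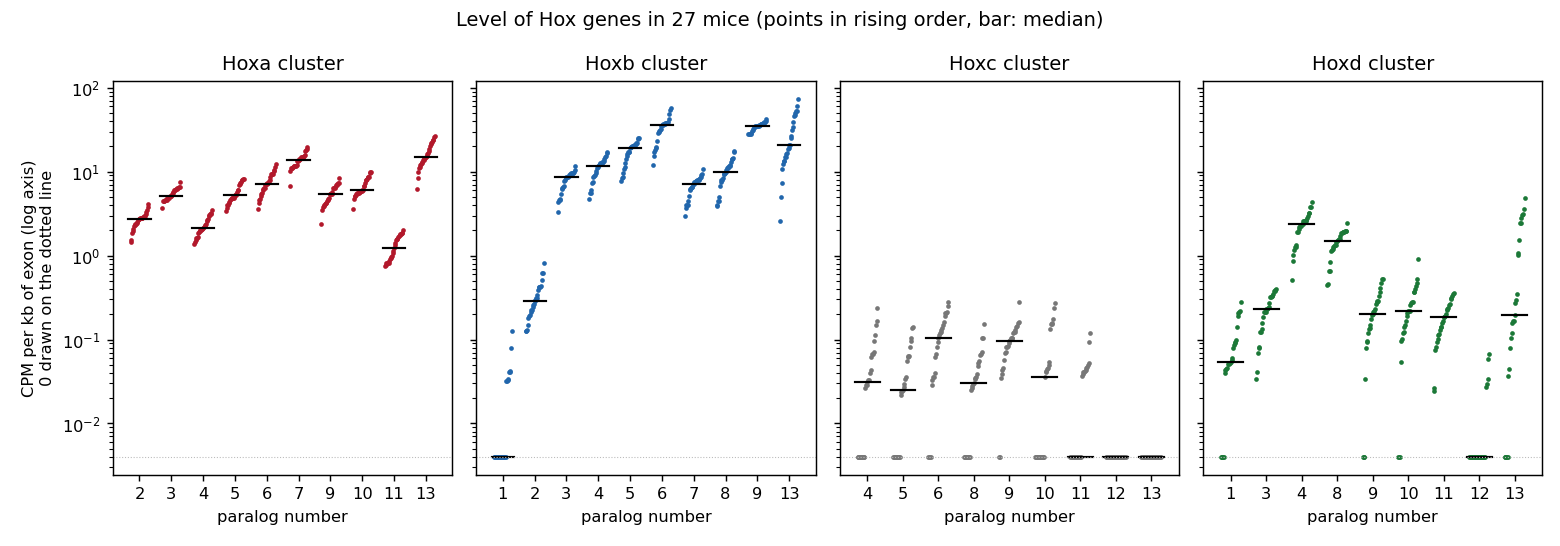
CPM per kb of exon (log axis) of Hox genes in the 27 mice, by cluster and paralog number, with the median as a bar and counts of 0 on the dotted line. Hoxb9, Hoxb6 and Hoxb13 lead with means of 34.5, 32.9 and 27.6 CPM per kb, and the Hoxc genes lie at the bottom.

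Divided by exon length, so that genes can be set side by side, Hoxb9 had the highest mean level at 34.5 CPM per kb (27.7 to 42.2 over the mice). Hoxb6 followed at 32.9 CPM per kb (12.0 to 57.9) and Hoxb13 at 27.6 CPM per kb (2.6 to 73.5). Hoxb5 averaged 17.3 CPM per kb (7.72 to 25.4), Hoxa13 16.2 (6.27 to 26.4) and Hoxa7 13.7 (6.69 to 19.7). Among the 10 highest members the ranges of neighbours in this order overlapped, so the order among them is that of the means alone. Anterior and posterior genes were thus both well covered: in the Hoxb cluster the level per kb went from 0.32 at Hoxb2 to 7.80 at Hoxb3, 11.01 at Hoxb4, 6.78 at Hoxb7 and 9.96 at Hoxb8. In the Hoxa cluster it went from 2.68 at Hoxa2 to 5.42 at Hoxa3, 2.28 at Hoxa4, 5.65 at Hoxa5, 7.43 at Hoxa6, 5.40 at Hoxa9, 6.74 at Hoxa10 and 1.29 at Hoxa11. The level did not climb step by step with paralog number in either cluster.

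The Hoxd cluster stood lower. Hoxd4 led it with a mean of 2.29 CPM per kb, followed by Hoxd8 at 1.44 and Hoxd13 at 1.03. Hoxd3, Hoxd9 and Hoxd11 averaged 0.22, 0.22 and 0.19 CPM per kb, with medians of 11, 5 and 9 reads per mouse, and their values rest on few reads. Exons of Hoxd3 and Hoxd4 overlap on the same strand over 62.3% and 52.3% of their length, so their counts are uncertain.

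The 14 members that were not tested stood at 19 counts or fewer in every mouse. They included all 9 Hoxc genes, Hoxb1, Hoxd1, Hoxd10 and Hoxd12. Hoxd10 had the highest mean of them at 0.44 CPM. The leading Hoxc gene, Hoxc6, had 0 to 8 counts per mouse, with 0, 3 and 2 in vehicle and 5, 3 and 7 in the 30 group. In counts, the groups between gave 4, 1 and 1 (0.01), 0, 1 and 4 (0.03), 0, 3 and 3 (0.1), 6, 2 and 3 (0.3), 1, 0 and 5 (1), 3, 6 and 6 (3) and 8, 1 and 2 (10). Hoxc12 and Hoxc13 had 0 counts in all 27 mice, which allows a level of up to 0.00961 CPM over the whole series and up to 0.209 to 0.322 CPM in a single library, for counting error only. Nearly all of the Hoxc cluster was therefore at or near the floor of detection, while its flanking genes Smug1 and Calcoco1 had 132 to 269 and 218 to 429 counts per mouse.

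The spread between mice was large for nearly all members. The biological coefficient of variation from the edgeR fit, which is the spread left after dose group and counting error, had a median of 0.300 over the 25 members against 0.125 over all 16496 genes tested. It was above that all-gene median in 24 of 25 members. Hoxb13 had 0.67, higher than 99.1% of all genes, Hoxd13 had 1.33 (99.9%), Hoxd9, read at 0 to 13 counts, had 0.67 (99.2%) and Hoxa13 had 0.33 (92.4%). Hoxb9 was the exception with 0.10, higher than 36.8% of genes, and its highest mouse stood 1.52 times over its lowest. The same ratio was 2.03 for Hoxa3, 3.56 for Hoxa9, 4.21 for Hoxa13, 4.82 for Hoxb6 and 28.3 for Hoxb13.

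Hoxb13, a homeobox gene of the hindgut and prostate at chr11:96194316-96197447 (GRCm38, plus strand), gave the widest range among the well-covered members. It stood at 109.5, 41.5 and 35.3 CPM in vehicle, with 29.5, 11.1 and 55.9 in the 0.01 group and 116, 74.5 and 32.6 in the 0.03 group. The 0.1 group had 5.73, 32.8 and 85.0 CPM, the 0.3 group 26.9, 46.0 and 133 and the 1 group 103, 45.9 and 29.8. The 3 group had 37.2, 70.1 and 24.0 CPM, the 10 group 162, 16.2 and 104 and the 30 group 117, 58.04 and 41.8. High and low mice occurred in the same dose group throughout, and the 10 mice above 60 CPM came from vehicle to 30 μg/kg.

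Hoxa13, the paralog of Hoxb13 on chromosome 6 (chr6:52257694-52260880, minus strand) and required for hindgut development, spread over a narrower range. It stood at 58.3, 29.6 and 33.9 CPM in vehicle, with 28.0, 15.5 and 45.9 in the 0.01 group and 65.2, 41.1 and 32.2 in the 0.03 group. The 0.1 group had 20.9, 33.7 and 52.4 CPM, the 0.3 group 27.3, 30.8 and 55.7 and the 1 group 58.4, 36.3 and 36.7. The 3 group had 38.0, 43.1 and 36.0 CPM, the 10 group 63.4, 24.7 and 50.04 and the 30 group 54.4, 40.2 and 31.7. In 9 of 9 groups the mouse with the highest Hoxb13 was also the mouse with the highest Hoxa13.

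Hoxd13, the third paralog of this kind (chr2:74668310-74671599, plus strand), was at or near 0 in most mice and clearly present in the rest. It had 61, 25 and 5 counts in vehicle, with 2, 0 and 0 in the 0.01 group and 95, 55 and 5 in the 0.03 group. The 0.1 group had 0, 0 and 81 counts, the 0.3 group 8, 9 and 119 and the 1 group 76, 1 and 3. The 3 group had 1, 3 and 5 counts, the 10 group 140, 0 and 102 and the 30 group 35, 5 and 10. The 10 mice above 2 CPM (2.52 to 11.9) came from 7 of the 9 groups and the other 17 mice lay at 0 to 0.862 CPM. The fourth member of this paralog group, Hoxc13, had no count in any mouse.

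Hoxb9, the member with the highest level per kb (chr11:96271457-96276595), was the steadiest. It stood at 72.6, 90.8 and 91.9 CPM in vehicle, with 97.1, 109 and 99.2 in the 0.01 group and 72.8, 84.0 and 88.3 in the 0.03 group. The 0.1 group had 99.2, 95.2 and 81.5 CPM, the 0.3 group 89.3, 89.3 and 79.1 and the 1 group 87.0, 90.5 and 102. The 3 group had 97.4, 93.0 and 95.6 CPM, the 10 group 73.6, 96.1 and 73.0 and the 30 group 71.3, 90.5 and 90.1. Within that narrow range the 5 lowest mice of Hoxb9 all stood at 103 CPM or more in Hoxb13, namely replicate 1 of vehicle, of the 0.03 group and of the 30 group, and replicates 1 and 3 of the 10 group. The other mouse above that line was replicate 3 of the 0.3 group (Hoxb9 at 79.1 CPM). Replicate 1 of the 1 group lay just under it (Hoxb13 at 102.6 CPM, Hoxb9 at 87.0 CPM).

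Hoxb13 and Hoxb6, both of the Hoxb cluster, went opposite ways between mice. The Hoxb6 values in the vehicle group were 37.1, 94.9 and 72.5 CPM, where Hoxb13 had 109.5, 41.5 and 35.3. At 10 μg/kg they were 38.2, 70.7 and 35.9 CPM, where Hoxb13 had 162, 16.2 and 104. In 8 of 9 groups the mouse highest in Hoxb13 was the lowest in Hoxb6. The ratio of Hoxb13 to Hoxb6 counts ran from 0.0539 to 4.90 over the mice, and was above 1 in 10 of 27. Within a group of 3 mice the ratio spanned 3.80-fold to 34.9-fold, while the geometric means of the 9 groups spanned 4.55-fold.

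Across the 27 mice the 25 tested members fell into opposed sets. Pearson's r and Spearman's rho of log2 CPM were computed for all 300 pairs of members, and for Hoxb13 and Hoxb6 against 152 other rows each, 604 correlations in all, with two-sided permutation tests (100000 permutations) adjusted over all 604. Of the 300 pairs, 208 passed an adjusted p of 0.05, 110 with r above 0 and 98 with r below 0. The smallest size of r that passed was 0.44, and 9.18% of all pairs of the 16496 genes were as large. A size of r over 0.6 was reached by 150 of the 300 member pairs, 83 above 0 and 67 below 0, and by 1.92% of all gene pairs. A first principal component of the 25 members held 62.3% of their variance, with 13 members on one side and 12 on the other.

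**Figure D2:**
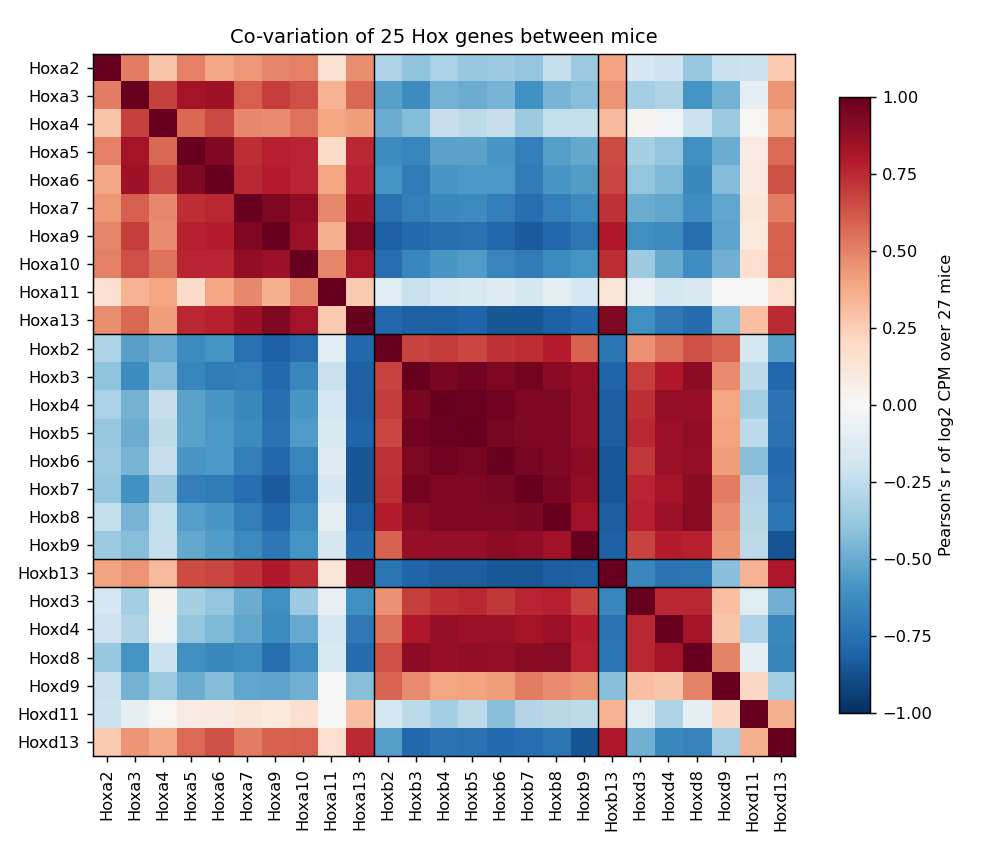
Pearson's r of log2 CPM over 27 mice for each pair of the 25 tested Hox genes, in cluster and paralog order, with lines setting off Hoxb13 and the clusters. Hoxb2 to Hoxb9 form a block of high r (median 0.92), Hoxa forms another (median 0.58), and Hoxb13 goes with Hoxa and against its own cluster.

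The contiguous genes Hoxb2 to Hoxb9 moved together most tightly. Their 28 pairs had a median r of 0.92 (0.59 to 0.98), and 28 of 28 passed. Hoxb4 and Hoxb5 were the closest pair of neighbours, with r = 0.98 and rho = 0.94 (permutation p = 1e-05 for each, the smallest that the permutations can give, adjusted p = 6.04e-05 for r). Hoxb9 shared the pattern, with r of 0.88 to Hoxb5 and 0.90 to Hoxb6, although its own range was narrow. Pairs next to each other in this stretch had a median r of 0.94 and the other pairs 0.90. Hoxb3 shares 52.9% of its exon length with genes on the opposite strand, and whether counting used strand is not given in the sources used here, so its value is uncertain.

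The Hoxa cluster formed a looser set. Its 45 pairs had a median r of 0.58 (0.15 to 0.93), with 45 of 45 above 0 and 34 passing. The closest were Hoxa7 with Hoxa9 at r = 0.93 and rho = 0.89 (permutation p = 1e-05 for each), Hoxa5 with Hoxa6 at r = 0.93 and Hoxa9 with Hoxa13 at r = 0.93. Hoxa11 had lower values, with r of 0.26 to Hoxa13 and 0.49 to Hoxa10. Its reads were few (18 to 57 counts per mouse) and 35% of its exon length overlaps antisense RNA. Neighbouring Hoxa genes had a median r of 0.68 and the other Hoxa pairs 0.56.

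Between Hoxa and Hoxb2 to Hoxb9, r was below 0 in 80 of 80 pairs. The median was -0.58 (-0.86 to -0.09), and 56 passed. Hoxa13, at the posterior end of its cluster, had with Hoxb6 r = -0.85 and rho = -0.83 (permutation p = 1e-05, adjusted p = 6.04e-05), while Hoxa2 with Hoxb6 had r = -0.37 and Hoxa4 with Hoxb6 had r = -0.23.

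Hoxb13 went with most of the Hoxa cluster and against the rest of its own. It lies 74.0 kb from Hoxb9, its nearest neighbour among the Hoxb genes. With Hoxa13 it had r = 0.93 and rho = 0.90 (permutation p = 1e-05, adjusted p = 6.04e-05), and r was 0.92 without the pair of mice farthest from the median of Hoxa13. Among all 16495 other genes Hoxa13 ranked 15th by size of r with Hoxb13. The r of Hoxb13 with Hoxa genes was 0.40 for Hoxa2, 0.45 for Hoxa3, 0.33 for Hoxa4, 0.65 for Hoxa5, 0.67 for Hoxa6, 0.72 for Hoxa7, 0.80 for Hoxa9, 0.74 for Hoxa10, 0.13 for Hoxa11 and 0.93 for Hoxa13. Of these 10 pairs 7 passed. The values were thus under 0.5 for Hoxa2 to Hoxa4 and for Hoxa11 and over 0.6 for the other Hoxa genes. With Hoxb2 to Hoxb9 the r of Hoxb13 lay between -0.84 and -0.73, and 8 of 8 passed. Hoxb13 with Hoxb6 had r = -0.84 and rho = -0.89, and r = -0.85 without the pair of mice farthest from the median of Hoxb6 (permutation p = 1e-05, adjusted p = 6.04e-05).

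**Figure D3:**
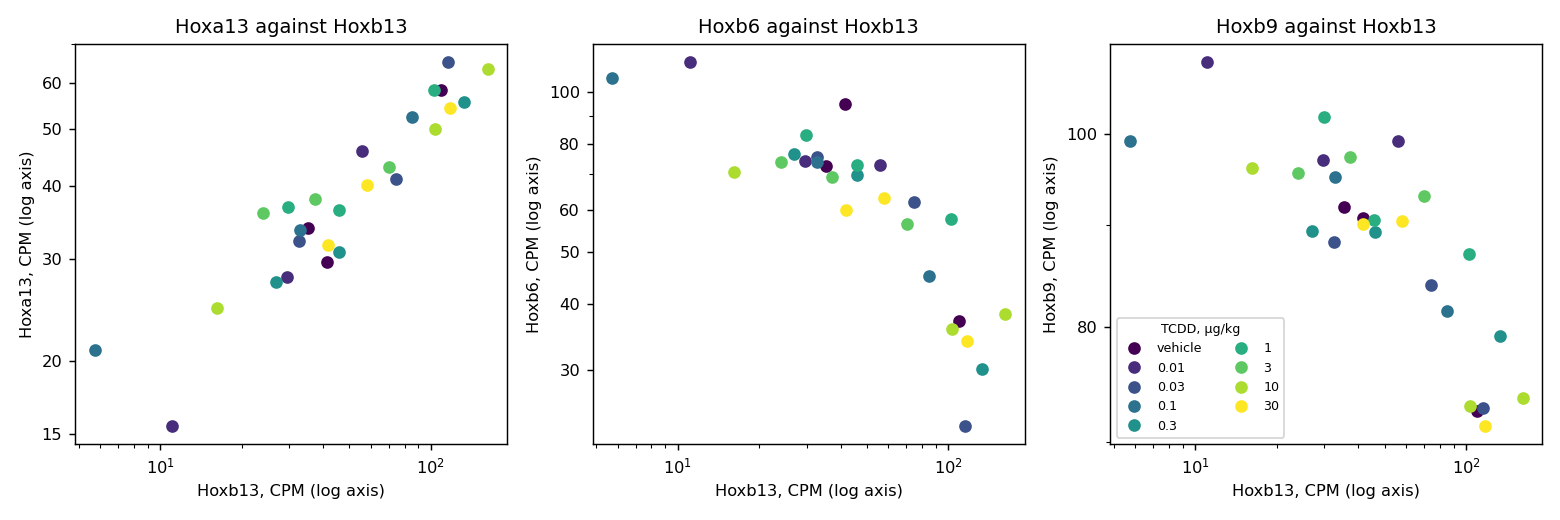
CPM of Hoxa13, Hoxb6 and Hoxb9 against CPM of Hoxb13 in the 27 mice (all axes log), with points shaded by TCDD dose. Hoxa13 rises with Hoxb13 (r = 0.93 on log2 CPM), Hoxb6 and Hoxb9 fall (r = -0.84 and -0.81), and doses are mixed along each cloud.

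The Hoxd cluster was divided between the sets. Hoxd3, Hoxd4, Hoxd8 and Hoxd9 went with Hoxb2 to Hoxb9 (median r = 0.76 over 32 pairs, 29 passing) and against Hoxa in 38 of 40 pairs (median r = -0.44, 20 passing below 0). Hoxd4 with Hoxb4 had r = 0.88 and Hoxd8 with Hoxb8 had r = 0.91. Since Hoxd13 split into mice above and under 2 CPM, its relations are given within each set of mice. Among the 17 mice under 2 CPM its r was 0.44 with Hoxb13 and -0.68 with Hoxb9, and among the 10 mice above it was 0.66 and -0.32, so the signs were alike in both. The mice were split on Hoxd13 itself, and the 17 lay at 0 to 0.862 CPM, so their r rests on few reads. Hoxd11, at 1 to 20 counts per mouse, had r of 0.35 with Hoxb13 and -0.42 with Hoxb6, neither of which passed (permutation adjusted p = 0.134 and 0.064). The index sets differed, with r of 0.61 and -0.62 within index set 1 and -0.14 and -0.04 within index set 2.

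Paralog number alone did not order the pairs. Members 2 to 8 had a median r of 0.15 among themselves, members 9 to 13 had 0.19, and pairs across that line had -0.17. Pairs with the same paralog number in different clusters had r from -0.76 to 0.93, with 7 of 18 above 0.

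The opposed sets were seen within the dose groups and within each index set. With each group's mean taken off, the median r was 0.62 within Hoxa, 0.94 within Hoxb2 to Hoxb9 and -0.67 between them, and Hoxb13 with Hoxb6 had r = -0.85 (permutation within groups, p = 1e-04, the smallest that 10000 permutations can give). Within index set 1 (16 mice) those medians were 0.66, 0.93 and -0.71, and within index set 2 (11 mice) 0.55, 0.94 and -0.42. Of the 300 pairs 88 passed within index set 2, where the smallest size of r that passed was 0.74 and 1.86% of all gene pairs were as large. Leaving out any mouse kept them at 0.55 to 0.65, 0.90 to 0.92 and -0.63 to -0.51. Library size moved with both sets, with r = 0.46 to Hoxb13 (permutation adjusted p = 0.0316) and r = -0.56 to Hoxb6 (permutation adjusted p = 0.00656). Its part in the co-variation was not tested.

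Promoter sequence is shown for members of both sets. RefSeq windows (build GRCm38.p6) were found for 22 of the 39 members, 17 of them tested. The 100 bases that end just before the start are printed 5′ to 3′ for members of each set. Hoxa13 and Hoxd13 stood high where Hoxb13 was high, and Hoxb4, Hoxb8 and Hoxd4 stood low there. Capitals mark GCGTG or its reverse complement CACGC, the core of the AhR response element, and TTTAT or ATAAA, the core of Cdx and posterior Hox sites, on either strand.
Hoxa13, chr6:52260881-52260980, minus strand: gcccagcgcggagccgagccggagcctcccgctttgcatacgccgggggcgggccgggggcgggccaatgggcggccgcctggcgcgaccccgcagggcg
Hoxd13, chr2:74668125-74668224, plus strand: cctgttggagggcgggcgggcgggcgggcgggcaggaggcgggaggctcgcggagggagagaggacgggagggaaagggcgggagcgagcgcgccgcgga
Hoxb4, chr11:96318167-96318266, plus strand: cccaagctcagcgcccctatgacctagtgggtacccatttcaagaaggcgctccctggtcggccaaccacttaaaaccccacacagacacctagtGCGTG
Hoxb8, chr11:96281805-96281904, plus strand: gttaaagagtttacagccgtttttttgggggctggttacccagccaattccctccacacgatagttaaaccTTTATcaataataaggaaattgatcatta
Hoxd4, chr2:74721878-74721977, plus strand: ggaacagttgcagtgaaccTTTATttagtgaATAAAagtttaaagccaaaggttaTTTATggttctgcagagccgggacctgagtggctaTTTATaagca
Over the 250 bases before the start, GCGTG in either orientation was found in 7 of 24 Hox windows and in 28.2% of all 32851 windows, and TTTAT in 9 of 24 Hox windows and 37.3% of all. The printed Hoxd4 stretch held the TTTAT core 4 times and the printed Hoxa13 and Hoxd13 stretches held neither core, although the 250 bases of Hoxd13 held TTTAT 2 times. A match is a description of letters and does not show binding.

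The RNAs that lie among the Hox genes were set against the same pair of genes. Hoxa11os, a long non-coding RNA antisense to Hoxa11, had 258 to 1377 counts per mouse and r = 0.89 with Hoxb13 and -0.78 with Hoxb6 (permutation adjusted p = 6.04e-05 for each). Hottip, a long non-coding RNA at the posterior end of Hoxa that was added to the list after its values were seen, had 47 to 308 counts and r = 0.84 with Hoxb13. Hoxaas3, an antisense RNA in the middle of Hoxa, had 80 to 198 counts and r = 0.22 with Hoxb13, which did not pass (permutation adjusted p = 0.362). Hoxb5os, antisense to Hoxb5, had 1 to 14 counts, r = -0.62 with Hoxb13 and 0.67 with Hoxb6. Gm53, a long non-coding RNA in the gap between Hoxb13 and Hoxb9, was the most abundant at 1232 to 2111 counts and followed neither set, with r = 0.04 with Hoxb13 and 0.19 with Hoxb6.

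The genes that flank the clusters differed from each other. Skap2, beside the Hoxa cluster, had r = 0.67 with Hoxb13, and Ttll6, beyond Hoxb13, had 0.52. Evx1, a homeobox gene beyond Hoxa13, had 3 to 39 counts and r = 0.36, which did not pass (permutation adjusted p = 0.119). Smug1, Calcoco1 and Mtx2, at the sides of Hoxc and Hoxd, had r of -0.11, 0.27 and -0.27 with Hoxb13.

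The clusters also hold microRNA genes, of which the Mir196a-1 row between Hoxb9 and Hoxb13 was the only tested member. It had 32 to 82 counts per mouse and r = 0.03 with Hoxb13 and -0.06 with Hoxb6. These libraries were not made for small RNA, so the row counts longer RNA over the hairpin and not the mature form. The rows of Mir196b and Mir196a-2 had 0 counts, Mir10a had 0 to 13 and Mir10b 0 to 3. The mature forms fall into a pair of seed families, printed 5′ to 3′ from RefSeq with bases 2 to 8 in capitals.
mmu-miR-196a-5p: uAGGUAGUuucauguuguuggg
mmu-miR-196b-5p: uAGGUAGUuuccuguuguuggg
mmu-miR-10a-5p: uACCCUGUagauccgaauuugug
mmu-miR-10b-5p: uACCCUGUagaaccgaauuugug

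Some markers of large bowel regions moved with Hoxb13 and Hoxb6. In a list of 5 tested regional markers, 3 passed against each gene, and a size of r as large as the smallest that passed was seen in 14.5% of all genes with Hoxb13 and in 14.4% with Hoxb6. Insl5, a hormone of enteroendocrine cells, had r = 0.88 with Hoxb13 and -0.85 with Hoxb6. Car4, a carbonic anhydrase of colonocytes, had r = 0.81 and -0.72. Cubn, the receptor for cobalamin bound to intrinsic factor, had r = -0.65 and 0.75 (permutation adjusted p of 0.00135 or less for each of the 6 values). The position of each scraping is not in the labels, and its part in the co-variation was not tested.

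Regulators of the Hox genes were counted in the same way. Among Cdx and other gut factors 3 of 7 passed against Hoxb13, among them Cdx2 and Hnf4a. Cdx2, which acts upstream of posterior Hox genes, had r = -0.65 with Hoxb13 and 0.78 with Hoxb6, and Hnf4a had r = 0.46 with Hoxb13. Of the retinoic acid pathway 4 of 12 passed against Hoxb13, among them Aldh1a1, a retinaldehyde dehydrogenase that makes retinoic acid, with r = -0.70 with Hoxb13 and 0.73 with Hoxb6, and Stra6, a retinol transporter read at 0 to 17 counts, with 0.62 and -0.61. Of the partner proteins 1 of 8 passed, which was Meis3 with r = -0.55 and 0.59. Of the Polycomb list 4 of 27 passed against Hoxb13 and of the Trithorax list 2 of 12, with median r of 0.04 and -0.08. These shares stand beside the 14.5% of all genes.

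Other cell types were set beside the same pair of genes. Of the smooth muscle list 0 of 9 passed against Hoxb13 (r of 0.03 to 0.18), and 0 of 9 against Hoxb6. None passed against Hoxb13 among 8 fibroblast, 3 enteric neuron and glia and 4 adipocyte genes. Against Hoxb6, 1 of the 8 fibroblast genes passed (Lum, r = -0.51). Pecam1 among 4 endothelial genes and Lyz2, a macrophage gene, among 5 immune genes passed, with r = 0.51 and 0.48 with Hoxb13. Of the epithelial list 3 of 10 passed, and they differed in sign: Muc2 had r = -0.74, Cdh1 0.62 and Krt18 0.48 with Hoxb13. Summed CPM of the epithelial list, led by Muc2, had r = -0.73 with Hoxb13 and 0.73 with Hoxb6. The part of these markers in the co-variation was not tested. Of the AhR targets 0 of 5 passed against either gene, although 5 of 5 rose over dose.

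No Hox gene was called against vehicle at any dose of TCDD, where the share of all genes was also small. Against vehicle, with an adjusted p under 0.05 (edgeR quasi-likelihood test) and a fold of at least 1.5, 0 of the 25 members were called at each of the 8 doses. Over all 16496 genes 0% were called at each dose from 0.01 to 0.3 μg/kg, 0.2% in the 1 group, 0.697% in the 3 group, 1.78% in the 10 group and 6.16% in the 30 group. DESeq2 also called 0 of 25 members at each dose. With 25 members and all-gene shares of 6.16% or less, these calls cannot set the Hox genes apart. From 0.01 to 30 μg/kg in rising order, 13, 13, 12, 7, 14, 6, 5 and 7 of 25 members were higher than vehicle. Their median log2 fold change was -0.23 at 10 and -0.21 at 30 μg/kg, against -0.01 and -0.002 over all genes. Members moved in sets between mice, so these signs are not separate observations. An unadjusted p under 0.05 was seen in 2 members at 0.01 μg/kg, in 1 in the 10 group, in 3 in the 30 group and in 0 elsewhere, and in 766 to 4458 of all genes by dose. Any difference between the 9 groups was called in 0 of 25 members and in 7.35% of all genes (edgeR quasi-likelihood F test, smallest adjusted p of a member 0.303, with 0 of 25 members and 3573 genes at an unadjusted p under 0.05). The share of each member's variance between groups had a median of 28.3%, against 38.0% over all genes and 30.8% where groups play no part.

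The 3 paralogs numbered 13 that were tested overlapped between 30 μg/kg and vehicle. Hoxb13 averaged 62.1 ± 41.2 CPM in vehicle and 72.4 ± 39.8 at 30 μg/kg (SD, n = 3 each), a log2 fold change of 0.22 with a 95% interval from -1.43 to 1.88. Hoxa13 averaged 40.6 ± 15.5 and 42.1 ± 11.5 CPM, a log2 fold change of 0.05 (-0.76 to 0.87). Hoxd13 averaged 3.04 ± 2.78 and 1.27 ± 1.11 CPM, a log2 fold change of -1.22 (-4.14 to 1.70). It turned to 3.56 with a term for the index set, but that term rests on the mice at 1 μg/kg, the only group with both sets. Their Hoxd13 counts were 76 in set 1 and 1 and 3 in set 2, so 3.56 cannot be read as an effect of dose. These intervals are wide, and for Hoxb13 a change of 2-fold in either direction lies inside. For Hoxb9 the interval was narrow, with a log2 fold change of -0.02 (-0.26 to 0.22).

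**Figure D4:**
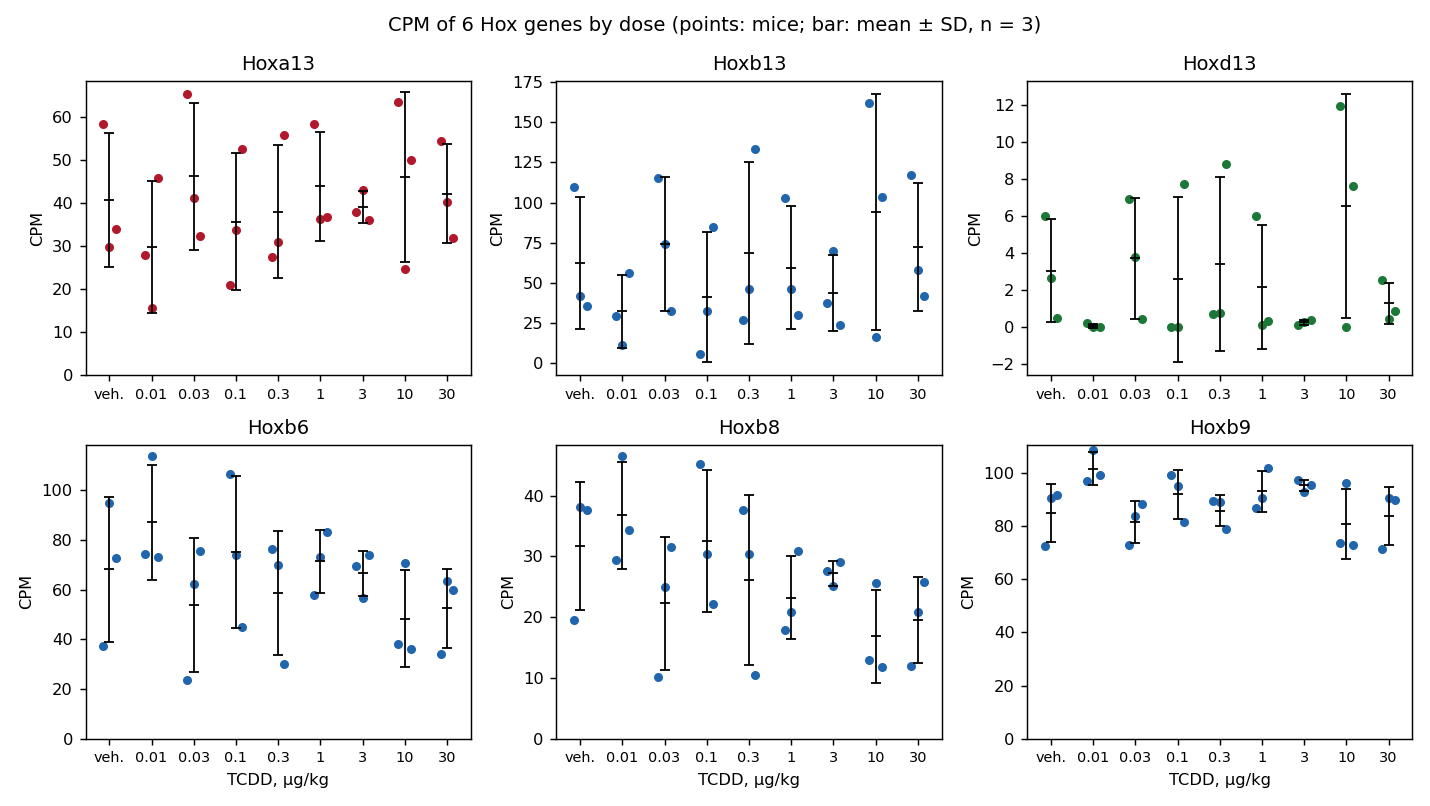
CPM of Hoxa13, Hoxb13, Hoxd13, Hoxb6, Hoxb8 and Hoxb9 in each mouse by TCDD dose, with the mean and SD of each group (n = 3). The mice of a group spread as widely as the groups do for Hoxb13, whose group means run from 32.2 to 93.9 CPM, and Hoxb8 averages 31.7 CPM in vehicle and 19.5 CPM at 30 μg/kg.

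Hoxb8, which lies between Hoxb9 and Hoxb7, was the only member with a slope over the rank of dose. It stood at 19.6, 38.1 and 37.6 CPM in vehicle, with 29.4, 46.5 and 34.3 in the 0.01 group and 10.2, 25.03 and 31.5 in the 0.03 group. The 0.1 group had 45.2, 30.4 and 22.2 CPM, the 0.3 group 37.6, 30.3 and 10.5 and the 1 group 17.9, 20.9 and 30.9. The 3 group had 27.6, 25.04 and 29.1 CPM, the 10 group 12.97, 25.7 and 11.9 and the 30 group 11.9, 20.8 and 25.9. The vehicle and 30 μg/kg groups overlapped. Its slope was -0.10 ± 0.04 (SE) log2 units per dose step (edgeR adjusted p = 0.0479), which is -0.82 over the 8 steps. Of all genes 23.4% had a slope by this rule, against 1 of 25 members (4%), and 4 members against 5921 of all genes had an unadjusted p under 0.05.

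The size of the Hoxb8 slope changed little with a mouse left out, from -0.12 to -0.09, but its adjusted p lay close to the threshold. The adjusted p rose above 0.05 when any of 16 of the 27 mice was left out, with edgeR adjusted p up to 0.105. These were replicates 2 and 3 of vehicle and of the 0.01 and 0.03 groups, replicates 1 and 2 of the 0.1, 1 and 30 groups, replicate 2 of the 0.3 and 3 groups, and replicates 1 and 3 of the 10 group. Within index set 1 it was -0.11 (edgeR adjusted p = 0.788) and within index set 2 -0.20 (edgeR adjusted p = 0.340). Within index set 1, 0.00606% of all genes had a slope. Hoxb8 also lost its call with a term for the index set (0.0667% of all genes had a slope) and without the filter on low counts (11.4%).

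**Figure D5:**
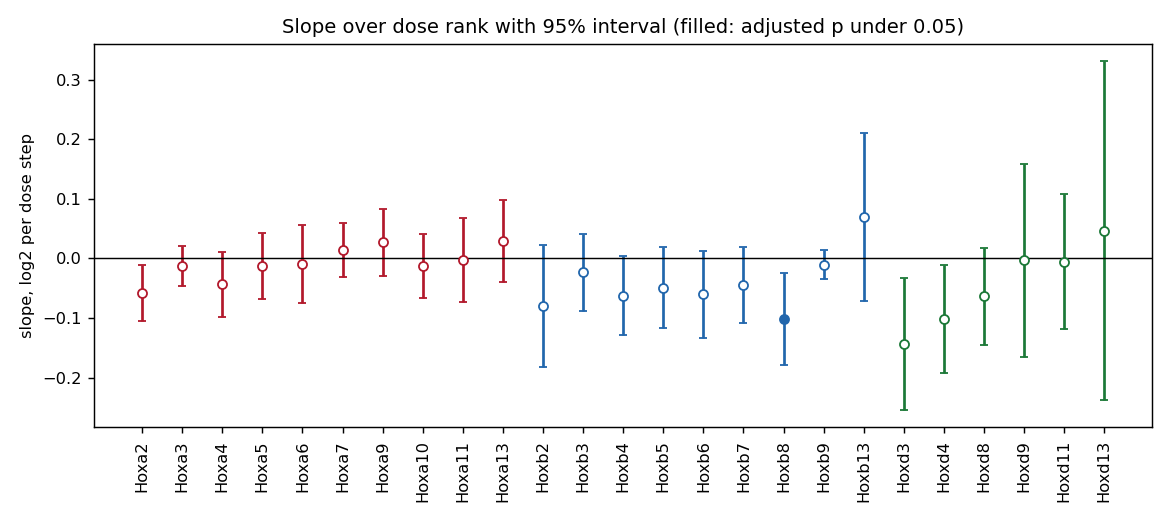
Slope of log2 expression per step of dose rank for the 25 tested Hox genes with 95% intervals, filled where the edgeR adjusted p was under 0.05. Only Hoxb8 is filled (-0.10), and 20 of 25 slopes lie below 0.

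No other slope passed. Of all 25 slopes 20 lay below 0, with a median of -0.01 against a median of -0.002 over all genes. By place, 8 of 8 members from Hoxb2 to Hoxb9 had a slope below 0 (median -0.05), as had 7 of 10 in Hoxa (median -0.01) and 5 of 6 in Hoxd (median -0.03), while Hoxb13 had 0.07 (95% interval -0.07 to 0.21). Because Hoxb2 to Hoxb9 moved together between mice, their shared sign is not 8 separate observations. Hoxd3 (slope -0.14, edgeR adjusted p = 0.0531) and Hoxa2 (slope -0.06, edgeR adjusted p = 0.0633) lay next to the threshold. Hoxd3 passed when replicate 1 of vehicle or of the 0.03 group, replicate 3 of the 1 group, replicate 1 or 3 of the 3 group or replicate 2 of the 10 group was left out. Hoxa2 passed without replicate 2 of vehicle or of the 0.01 group, replicate 1 or 3 of the 10 group or replicate 1 of the 30 group, and Hoxd4 without replicate 1 of the 0.03 group.

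Hoxd4, the leading gene of its cluster, was 1 of 3 members whose mice at 30 μg/kg did not overlap with vehicle. It stood at 5.61, 7.06 and 9.42 CPM in vehicle, with 6.55, 12.7 and 6.93 in the 0.01 group and 1.53, 6.63 and 8.32 in the 0.03 group. The 0.1 group had 11.2, 8.71 and 5.71 CPM, the 0.3 group 9.39, 7.91 and 3.92 and the 1 group 7.52, 7.66 and 11.3. The 3 group had 6.53, 6.17 and 7.52 CPM, the 10 group 2.56, 7.53 and 3.43 and the 30 group 3.02, 3.76 and 3.71. At 30 μg/kg all 3 mice lay below the 3 vehicle mice, a log2 fold change of -1.08 ± 0.46 (SE) that did not pass in the fit of all groups (edgeR adjusted p = 0.128), but passed in a fit of these groups alone (edgeR adjusted p = 0.0331), where 1 member and 4.43% of all genes were called. Its slope was -0.10 (edgeR adjusted p = 0.0941), and -0.49 within index set 2 (edgeR adjusted p = 0.0222), where 1 of 25 members and 2.95% of all genes had a slope. Hoxd3 and Hoxa4 also lay below vehicle in 3 of 3 mice at 30 μg/kg, with log2 fold changes of -1.47 and -0.68 (edgeR adjusted p = 0.148 and 0.102). Groups without overlap were thus seen in 3 of 25 members and in 29.7% of all genes.

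Regulators and neighbours were counted in the same way, beside the 23.4% of all genes with a slope. Of the partner proteins 3 of 8 had one, 2 up and 1 down: Meis2 rose by 0.15 log2 units per step and Meis3 fell by 0.05. Meis2 also passed at 30 μg/kg (log2 fold change 1.5). Of the Cdx and other gut factors 2 of 7 had a slope: Sox9, a factor of crypt base cells, fell by 0.09 log2 units per step and Hnf4a, an enterocyte factor, rose by 0.04 (edgeR adjusted p = 0.000447 and 0.00692). Cdx1 and Cdx2 did not pass (edgeR adjusted p = 0.972 and 0.978). Of the Polycomb list 5 of 27 had a slope, 1 up and 4 down, and of the Trithorax list 2 of 12, both down. Of the retinoic acid pathway 3 of 12 had a slope, 2 up and 1 down. Of the large bowel markers 2 of 5 had a slope, both down (Ang4 and Mptx1, which did not pass against Hoxb13). Beside these, 6 of 9 smooth muscle genes and 7 of 10 epithelial genes had a slope upward, as had 2 of 3 enteric neuron and glia genes, 2 of 4 endothelial genes and 1 of 8 fibroblast genes. None of 5 immune and 4 adipocyte genes had a slope, although 2 adipocyte genes were called higher at 30 μg/kg. The part of these markers in the slopes was not tested. Among the genes in and beside the clusters, Ttll6 (slope -0.09) and Gm53 (slope -0.02) fell over dose rank (edgeR adjusted p = 0.00516 and 0.0158).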

How the data were processed

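Counts are raw: per the labels and the submitters' processing notes, the authors checked reads with FastQC 0.11.3, trimmed them with Trimmomatic 0.33, aligned them to GRCm38 with TopHat2 2.1.0 and SAMtools 1.2.0, and deposited HTSeq 0.6.1 gene counts, 1 table per mouse, from libraries made with the Ovation Mouse RNA-Seq System. The notes also list DESeq. Annotation and strand setting are not given in the sources used here. Library sizes leave out the summary lines of each table, of which reads with no feature made up 29.1% to 33.3% of the table's total and reads aligned more than 1 time 30.7% to 37.1%. Total gene counts set the precision, from 9305441 to 14371035 per mouse.

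Genes were filtered (filterByExpr, minimum count 10), scaled by TMM and tested with edgeR 4.0.16 in R 4.3.3: each dose against vehicle (adjusted p under 0.05 and fold of at least 1.5), a slope over dose rank, and any difference between the 9 groups, each fitted on 16496 genes with Benjamini-Hochberg adjustment. Correlations used log2 CPM with a prior count of 2. Levels were set side by side per kb of GENCODE M21 exons on GRCm38. Alternatives were DESeq2 1.42.0, other scaling, filters and dose scales, an index set term, index sets alone and each mouse left out. No pair of mice in a group agreed within sampling noise (lowest chi-square per degree of freedom 5.32). Steps were tested on simulated data. Each table is from a separate mouse, and p-values measure the spread between these mice.

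Values were given in every mouse for the member of each cluster with the highest mean CPM, each paralog numbered 13 and any member called, and other genes only as lists or as neighbours of the clusters. Members and lists were chosen with earlier results of these data known. Values of some genes are not reported here.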

Additional observations from a re-analysis of the deposited data

How the results depend on the processing

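The median r within Hoxa, within Hoxb2 to Hoxb9 and between them kept its sign under each alternative run: with group means taken off, in each index set, with a prior count of 0.5, with library size alone and with each mouse left out. In index set 2 alone, where 11 mice remain, 88 pairs of members passed in place of 208 (1.86% of all gene pairs were as large, against 9.18%). Medians near 0 changed sign, namely within Hoxd in index set 1 (-0.16), within paralogs 2 to 8 with group means taken off (-0.0229) or in index set 1 (-0.0255), and between clusters at the same paralog number in index set 2 (0.0798). The count of members with a slope was 1, and it was 0 without the filter on low counts (11.4% of all genes had a slope), 0 with an index set term (0.0667%), 0 in index set 1 (0.00606%), 2 with DESeq2 (25.2%), and 0 to 3 with a mouse left out (19.2% to 26.9%). In a fit of only vehicle and 30 μg/kg, 1 member was called, Hoxd4, and 4.43% of all genes. Fold changes at 30 μg/kg that were far from called changed sign: Hoxd13 with an index set term (3.56), Hoxa13 without replicate 2 or 3 of vehicle or replicate 1 at 30 μg/kg (-0.18 to 0.41 with any mouse left out), and Hoxb13 without replicate 3 of vehicle or replicate 1 at 30 μg/kg (-0.32 to 0.92). The Hoxd13 value of 3.56 rests on the mice at 1 μg/kg, the only group with both index sets. The Hoxd13 slope per dose step changed sign without replicate 1 or 3 at 10 μg/kg (-0.0563 to 0.112). The causes were not tested. No paired analysis was possible because the replicate numbers only name mice and no mouse is in more than 1 group. With 3 mice per group, intervals for Hoxb13 and Hoxd13 were wide, and members under 20 counts rest on few reads.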
